A study of Mus musculus with 16 samples.

Results

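The 10 genes described here are Nfe2l2, which encodes the transcription factor Nrf2, its inhibitor Keap1, and 8 genes that Nrf2 is known to switch on: Gclc, Gclm, Slc7a11, Gsr, Srxn1, Nqo1, Hmox1 and Abcc1. They were listed by name and with no threshold on their signals, at a time when earlier results of these data were known, and every probe set annotated to one of these symbols was taken. That gave 20 of the 45037 probe sets of the Affymetrix mouse expression array and 10 of the 18193 genes that a probe set with a single symbol stands for. The probe set with the highest mean over all 16 arrays stands for a gene, and its other probe sets are named where they are given. All values are log2 signals, so a difference of 1 is a doubling, and a signal of one probe set is not compared with that of another.

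Nrf2 is a basic leucine zipper factor that Keap1, an adaptor of a cullin 3 ubiquitin ligase, holds at a low level in unstressed cells. Electrophiles and oxidants modify cysteines of Keap1, Nrf2 then accumulates, pairs with a small Maf protein and binds the antioxidant response element of genes for glutathione synthesis, peroxide repair, quinone and haem breakdown and drug export. Loss of thioredoxin reductase 1 is a known trigger of this response in other cells, and many tumours run it at a high level. Because Nrf2 is controlled mainly through its breakdown, its activity is read from the mRNA of its targets more than from its own.

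The cells were CT26, a mouse colon carcinoma line of BALB/c origin, and all 4 lines carried a stably selected pU6-m3 plasmid, in which the U6 promoter drives a short hairpin. The control line held the empty plasmid, the shSep15 line a hairpin against the 15 kDa selenoprotein (gene Selenof), the shTR1 line one against thioredoxin reductase 1 (gene Txnrd1), and the shTR1/shSep15 line both hairpins, with 4 arrays of different mRNA samples per line. Selection used hygromycin B, several clones of each line are described in the methods, and which clone was put on the arrays is not given in the sources used here. Nothing says that the mRNA samples came from separate cultures, so every p-value measures only the spread between these mRNA samples. The target stretches of the hairpins, printed because they define the lines, are as follows.
Sep15 hairpin: acagaagagttccatttaa
TR1 hairpin: atcgctctgacaagcttattag

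The targeted genes bear on how the lines are read. Selenof gave 10.78 to 11.57 in the control line, 8.02 to 8.29 in shSep15 and 7.34 to 7.86 in shTR1/shSep15. With its brightest probe set (1421529_a_at), Txnrd1 gave 7.84, 10.57, 7.89 and 9.71 on the arrays labelled shTR1 replicates 1 to 4, against 9.45 to 10.39 in the control line and 7.18 to 7.91 in shTR1/shSep15. Replicates 2 and 4 of shTR1 thus lay in or above the control range of the targeted gene on this probe set. On the dimmer 1424486_a_at, replicate 2 lay below all control arrays (5.24 against 5.51 to 6.58) and replicate 4 within them (5.58), and on 1424487_x_at replicate 4 lay below (3.48 against 3.54 to 4.09) and replicate 2 within (3.56). The shTR1 values of the members are also given without both arrays. Control replicate 2 also stood apart, with correlations to the other arrays of 0.926 to 0.951 over all probe sets, where the remaining arrays reached at least 0.956 with one another. Of the marker lists, 8 of 8 mesenchymal genes lay above the median signal of all probe sets (list means 8.39 to 9.27), and 5 of 9 epithelial genes did. The 5 were Krt20 (82.8th percentile), Epcam (69.1th), Krt18 (67.8th), the intestinal factor Cdx2 (56.0th) and Krt8 (53.2th). Krt19 (45.0th), Cldn7 (38.3th), Vil1 (28.5th) and Cdh1, the epithelial cadherin (3.67th), lay below. Of the leukocyte list 4 of 6 measured genes lay above the median, with Ptprc at the 9.55th percentile, and of the endothelial list 1 of 4. Cd68 differed most within the leukocyte list, with means of 5.48 in control, 5.14 in shSep15, 8.15 in shTR1 and 6.84 in shTR1/shSep15. The epithelial list mean was 4.69 to 5.21 in the control line and 4.10 to 4.28 in shSep15. Within the list Krt18 (mean 5.94 in control, 3.26 in shSep15) and Krt20 (8.31 and 5.02) differed most. Epcam (6.04 and 5.92) and Krt8 (4.89 and 4.63) differed far less. The part of these marker lists in the differences below was not tested.

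RefSeq promoters (GRCm38.p6, 250 bases before and 50 after the start) were at hand for 6 of the 10 genes, Nfe2l2, Keap1, Gclm, Slc7a11, Srxn1 and Nqo1. They were searched on both strands for TGACNNNGC, the core of the antioxidant response element, and for TGAGTCA, the AP-1 site that many such elements contain. The core was found in 3 of the 6, Nfe2l2, Gclm and Srxn1, and in 12.4% of all 32851 promoters. The AP-1 letters were found in 1 of the 6, Srxn1, at 2 places, and in 5.2% of all promoters. The stretches below show these matches in capitals, to give their place in the start regions of genes whose values follow. A match is a description of letters and not of binding, and sequence further from the start was not searched.
Nfe2l2, chr2:75704873-75704913, minus strand: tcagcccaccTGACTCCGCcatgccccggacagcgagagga
Gclm, chr3:122245407-122245447, plus strand, core on the opposite strand: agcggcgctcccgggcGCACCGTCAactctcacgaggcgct
Srxn1, chr2:152105412-152105495, plus strand, AP-1 letters: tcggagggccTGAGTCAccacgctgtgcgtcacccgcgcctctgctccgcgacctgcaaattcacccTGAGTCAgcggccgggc
The core in Srxn1 began 29 bases after the start and is not printed.

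The first question was whether any of the pathway genes differed from the control line once Sep15, TR1 or both were knocked down. No member probe set passed a Benjamini-Hochberg adjusted p of 0.05 in limma in shSep15 (0 of 20), shTR1 (0 of 20) or shTR1/shSep15 (0 of 20). Over all probe sets 1.97%, 0.180% and 0.0244% passed in the same comparisons, so a count of 0 in 20 is near the background. At an unadjusted p under 0.05 the counts were 3 of 20 in shSep15 (Gclc lower, Gclm higher with both probe sets), 0 of 20 in shTR1 and 2 of 20 in shTR1/shSep15 (Keap1 and Abcc1, both higher), against 12.7%, 11.8% and 8.14% of all probe sets. The 4 arrays of a line lay wholly outside the 4 control arrays for 0, 0 and 3 member probe sets (Keap1, Nqo1 and Abcc1, all higher in shTR1/shSep15), against 6.42%, 4.22% and 4.93% of all probe sets. Arrays that do not overlap have the smallest two-sided exact permutation p that 4 against 4 allow, 0.0286.

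**Figure D1:**
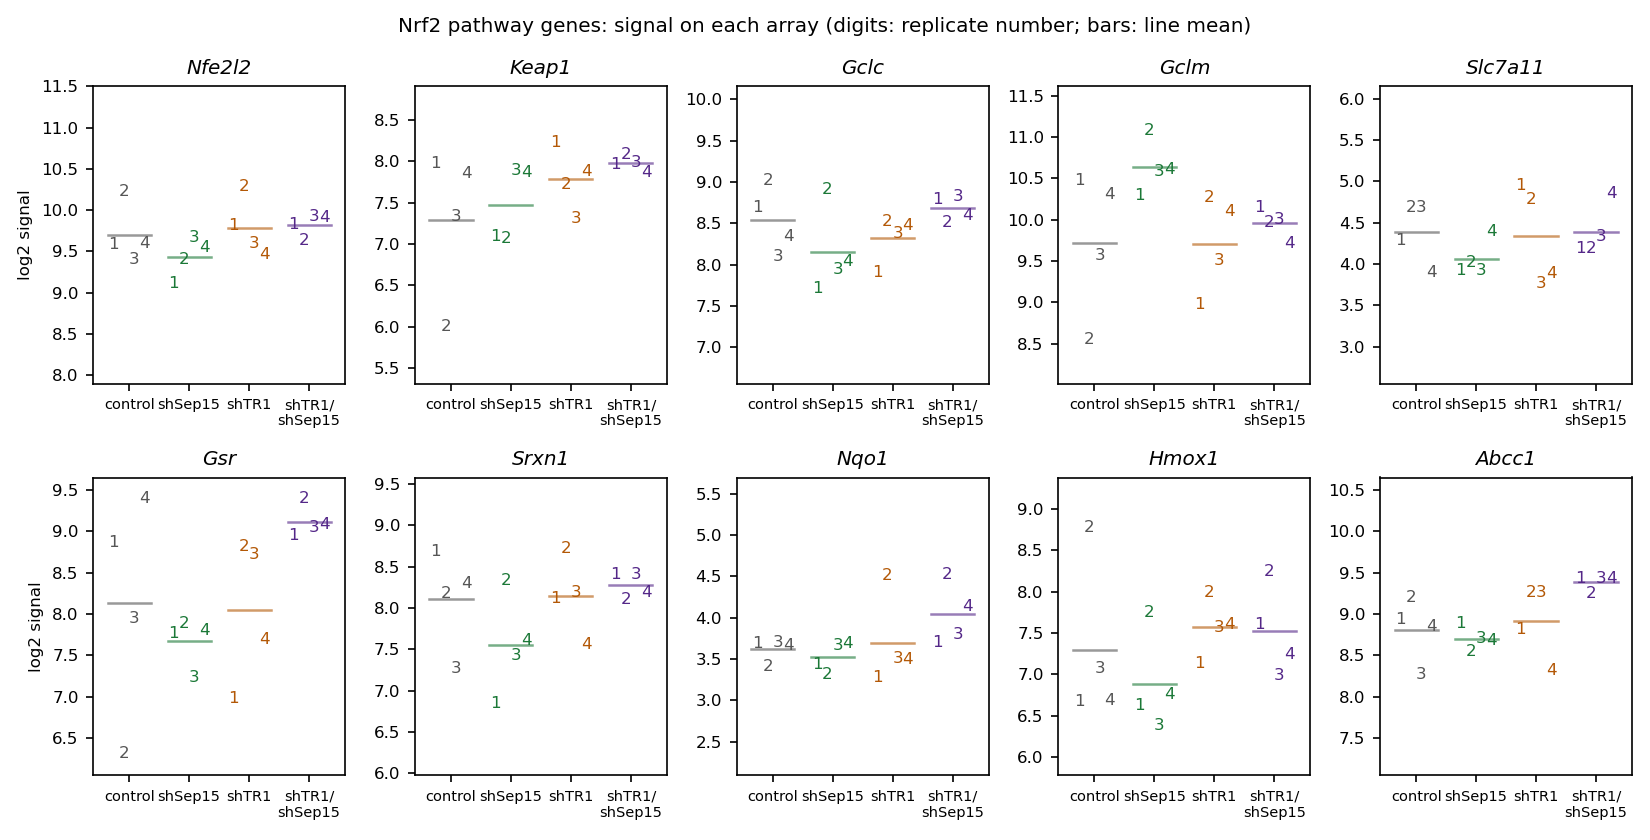
Log2 signal of the probe set standing for each of the 10 genes on all 16 arrays, with digits for the replicate number and bars for the mean of a line; every panel spans 3.6 log2 units. The shTR1/shSep15 arrays sit close together in most panels, control replicate 2 is the lowest control array for Keap1, Gclm, Gsr and Nqo1 and the highest for Nfe2l2, Gclc, Abcc1 and Hmox1, and replicate 2 is the highest array of every line for Hmox1.

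The regulators come first. Nfe2l2 (1416543_at) gave 9.59, 10.22, 9.41 and 9.59 in the control line, 9.12, 9.41, 9.67 and 9.55 in shSep15, 9.81, 10.29, 9.59 and 9.47 in shTR1 and 9.82, 9.63, 9.92 and 9.91 in shTR1/shSep15. The lines overlapped throughout, with shSep15 lowest and shTR1/shSep15 highest on average. Nfe2l2 was -0.27 ± 0.19 (SE) from the control mean in shSep15 (adjusted p = 0.641, limma), 0.09 in shTR1 (adjusted p = 0.865, limma) and 0.12 in shTR1/shSep15 (adjusted p = 0.933, limma). The 95% intervals reached from -0.68 to 0.15, -0.33 to 0.50 and -0.29 to 0.54, so a doubling or halving of the signal of this probe set lay outside all 3. Without control replicate 2 the values were -0.09, 0.26 and 0.30. Its dimmer probe set (1457117_at) gave 6.95 on control replicate 2 and 3.79 to 4.67 on the other control arrays, and the differences from control of -0.41, -0.28 and -0.57 became 0.28, 0.41 and 0.13 without that array. With all arrays the 95% intervals of 1457117_at were -1.46 to 0.63, -1.33 to 0.76 and -1.61 to 0.48, so a halving lay inside all 3.

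Keap1 had a probe set on which the shTR1/shSep15 line stood clear of the control arrays. With the probe set 1450747_at it gave 6.81, 5.59, 5.89 and 6.45 in the control line, 6.15, 6.19, 6.15 and 6.72 in shSep15, 5.49, 6.40, 6.31 and 6.51 in shTR1 and 7.06, 7.11, 6.93 and 7.01 in shTR1/shSep15. All shTR1/shSep15 arrays lay above all arrays of the other 3 lines. The difference from control was 0.84 ± 0.25 (SE, 95% interval 0.30 to 1.39), a 1.8-fold higher signal, with an adjusted p of 0.39 in limma. The brighter probe set (1450746_at) gave 7.97, 5.996, 7.33 and 7.86 in the control line and 7.96, 8.09, 7.99 and 7.87 in shTR1/shSep15, a difference of 0.69 ± 0.35 (adjusted p = 0.662, limma), and there the lines overlapped. Control replicate 2, at 5.996, was far below the other control arrays, and without it the difference of the brighter probe set was 0.26 ± 0.25 and that of 1450747_at 0.65 ± 0.24. In shSep15 and shTR1 the brighter probe set was 0.19 and 0.50 from control, and -0.24 and 0.07 without control replicate 2.

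Of the genes for glutathione synthesis, the subunits of glutamate cysteine ligase, the first enzyme of the pathway, had shSep15 means on opposite sides of the control mean. Gclm, the modifier subunit, gave 10.47, 8.55, 9.57 and 10.30 in the control line and 10.30, 11.08, 10.59 and 10.61 in shSep15. It gave 8.97, 10.26, 9.50 and 10.10 in shTR1 and 10.15, 9.96, 10.002 and 9.71 in shTR1/shSep15. All shSep15 arrays lay above all shTR1 and shTR1/shSep15 arrays, while control replicates 1 and 4 reached into the shSep15 range. The difference of shSep15 from control was 0.92 ± 0.36 (SE), 1.89-fold, with an adjusted p of 0.28 in limma. Its dimmer probe set (1439050_at) gave 1.12 ± 0.44 (adjusted p = 0.283, limma). Control replicate 2 was the lowest control array with both probe sets, and without it the difference of the brighter one was 0.53 ± 0.29. In shTR1/shSep15 the difference from control was 0.23 with all arrays and -0.16 without control replicate 2.

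Gclm lies on chromosome 3, and the values of its neighbours there were read after those of Gclm were seen. Of the 10 measured genes on either side in RefSeq order (20 in all), 13 had a higher mean in shSep15 than in control, 4 rose at an adjusted p under 0.05 and 0 fell, where 2.72% of all genes passed in either direction. Dnttip2, the next measured gene on one side, rose by 1.64 and Bcar3, the one after it, rose by 1.40 (adjusted p = 0.00343 and 0.000926, limma). Cnn3 and Myoz2 were the other two, with 0.99 and 2.59 (adjusted p = 0.0175 and 0.00038, limma). Around Slc7a11, the other member on chromosome 3, 10 of 20 neighbours had a higher mean in shSep15, 0 rose and 0 fell. The part of position in the Gclm value was not tested.

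Gclc, the catalytic subunit, had its lowest mean in shSep15. It gave 8.69, 9.01, 8.10 and 8.34 in the control line, 7.71, 8.90, 7.94 and 8.03 in shSep15, 7.91, 8.52, 8.37 and 8.48 in shTR1 and 8.78, 8.51, 8.83 and 8.60 in shTR1/shSep15. Replicates 1, 3 and 4 of shSep15 lay below all control arrays, and replicate 2 lay near the top of the control range. The second probe set (1455959_s_at) showed shSep15 replicate 2 apart in the same way, with 7.43, 8.58, 7.78 and 7.77 against 8.36, 8.92, 8.48 and 8.22 in the control line, a difference of -0.60 ± 0.20 with an adjusted p of 0.185 in limma. One array decided this call, since without shSep15 replicate 2 the difference was -0.83 and the adjusted p 0.0174, the only member to pass against control when an array was left out. In shTR1/shSep15 Gclc was 0.15 ± 0.24 from control, and the lines overlapped.

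Slc7a11, the cystine importer that supplies cysteine for glutathione, was dim on these arrays, at the 45.9th percentile of all probe sets. It gave 4.29, 4.68, 4.68 and 3.90 in the control line, 3.93, 4.02, 3.93 and 4.40 in shSep15, 4.95, 4.78, 3.76 and 3.89 in shTR1 and 4.19, 4.18, 4.33 and 4.86 in shTR1/shSep15. The lines overlapped, and shTR1 had replicates 1 and 2 above and replicates 3 and 4 below all control arrays, a split that did not follow the Txnrd1 signal. The differences from control were -0.32, -0.04 and 0.00 (SE 0.27), and at this signal a difference of 1.10 in shSep15 or 1.74 in shTR1/shSep15 would have been needed to pass. Its dimmer probe set (1443536_at) gave -0.11, -0.14 and -0.07 (SE 0.16).

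Gsr, glutathione reductase, which returns oxidised glutathione to its reduced form, had the widest control spread of the brightest probe sets. It gave 8.87, 6.31, 7.95 and 9.40 in the control line and 7.77, 7.88, 7.23 and 7.80 in shSep15. It gave 6.98, 8.82, 8.73 and 7.69 in shTR1 and 8.95, 9.39, 9.04 and 9.08 in shTR1/shSep15. The shTR1/shSep15 arrays lay above every shSep15 and shTR1 array, and control replicate 4 alone lay above them all. The difference of shTR1/shSep15 from control was 0.99 ± 0.53 (95% interval -0.15 to 2.13, adjusted p = 0.681, limma). Control replicate 2 gave 6.31, and without that array the difference was 0.38. In shSep15 and shTR1 the values were -0.46 and -0.08 with all arrays and -1.07 and -0.68 without control replicate 2. The second probe set (1421817_at) gave -0.10, 0.24 and 0.78 (SE 0.45) in shSep15, shTR1 and shTR1/shSep15, and -0.64, -0.30 and 0.24 without control replicate 2.

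Srxn1, sulfiredoxin, reduces hyperoxidised peroxiredoxins and has 4 probe sets. The brightest (1426875_s_at) gave 8.68, 8.17, 7.26 and 8.30 in the control line, 6.84, 8.33, 7.43 and 7.61 in shSep15, 8.11, 8.72, 8.19 and 7.56 in shTR1 and 8.40, 8.10, 8.41 and 8.19 in shTR1/shSep15. The shSep15 arrays ranged most widely, from 6.84 to 8.33, and overlapped with control. The difference of shSep15 from control was -0.55 ± 0.32 (adjusted p = 0.54, limma), and those of shTR1 and shTR1/shSep15 were 0.04 and 0.17. In the same order of lines, 1451680_at gave -0.39, -0.25 and 0.52 (SE 0.37), 1425351_at gave -0.46, -0.32 and 0.27 (SE 0.41), and 1419942_at gave -0.0015, -0.11 and -0.04 (SE 0.11). Across the 16 arrays, which share lines and scaling, the probe sets 1451680_at and 1425351_at followed the brightest (Pearson r = 0.834 and 0.748), while 1419942_at did not (r = 0.237) and spanned only 5.83 to 6.34.

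Nqo1, the quinone reductase often used as a readout of Nrf2, was dim as well, at the 33.9th percentile. It gave 3.68, 3.41, 3.70 and 3.67 in the control line, 3.43, 3.31, 3.66 and 3.68 in shSep15, 3.27, 4.50, 3.51 and 3.50 in shTR1 and 3.70, 4.52, 3.80 and 4.14 in shTR1/shSep15. All shTR1/shSep15 arrays lay above all control arrays, the nearest pair almost touching, and shTR1 replicate 2 lay among the shTR1/shSep15 arrays. The difference of shTR1/shSep15 from control was 0.43 ± 0.23 (95% interval -0.07 to 0.92, adjusted p = 0.684, limma), and that of shTR1 was 0.08 with all arrays and -0.22 without shTR1 replicates 2 and 4.

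Hmox1, the inducible haem oxygenase, gave 6.67, 8.78, 7.07 and 6.68 in the control line and 6.62, 7.75, 6.38 and 6.76 in shSep15. It gave 7.13, 7.99, 7.57 and 7.60 in shTR1 and 7.60, 8.24, 6.99 and 7.24 in shTR1/shSep15. In each line the highest array was replicate 2, and control replicate 2 was the highest of all. The differences from control were -0.42, 0.28 and 0.22 (SE 0.43, adjusted p = 0.756, 0.799 and 0.951, limma). Without control replicate 2 they were 0.07, 0.77 and 0.71 ± 0.33, with adjusted p = 0.96, 0.398 and 0.894 in limma. The size of the Hmox1 value in shTR1 and in shTR1/shSep15 thus moved with that array. It was not the only one, since the shTR1/shSep15 value was -0.02 without shTR1/shSep15 replicate 2. With shTR1 replicates 2 and 4 left out instead, the shTR1 value was 0.05.

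Abcc1, the pump that exports glutathione conjugates, had its highest signals in shTR1/shSep15. It gave 8.93, 9.20, 8.27 and 8.85 in the control line, 8.88, 8.54, 8.70 and 8.68 in shSep15, 8.81, 9.26, 9.26 and 8.32 in shTR1 and 9.43, 9.25, 9.43 and 9.43 in shTR1/shSep15. All shTR1/shSep15 arrays lay above all control and all shSep15 arrays, and replicates 2 and 3 of shTR1 reached into their range. The difference from control was 0.57 ± 0.21 (95% interval 0.13 to 1.02), 1.49-fold, with an adjusted p of 0.498 in limma. The second probe set (1421378_s_at) gave 0.45 ± 0.29 (adjusted p = 0.747, limma) and overlapped with control.

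Leaving out shTR1 replicates 2 and 4 moved the difference of shTR1 from control from -0.02 to -0.49 for Gclm, from -0.22 to -0.39 for Gclc and from -0.08 to -0.28 for Gsr. Abcc1 moved from 0.10 to 0.22, Nfe2l2 from 0.09 to -0.0015 and Keap1 with 1450747_at from -0.00475 to -0.28. Keap1 with 1450746_at (0.48), Srxn1 (0.05) and Slc7a11 (-0.03) stayed near their values with all arrays. None passed the test in that fit, and without control replicate 2 as well Gclm was -0.88 (adjusted p = 0.374, limma).

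**Figure D2:**
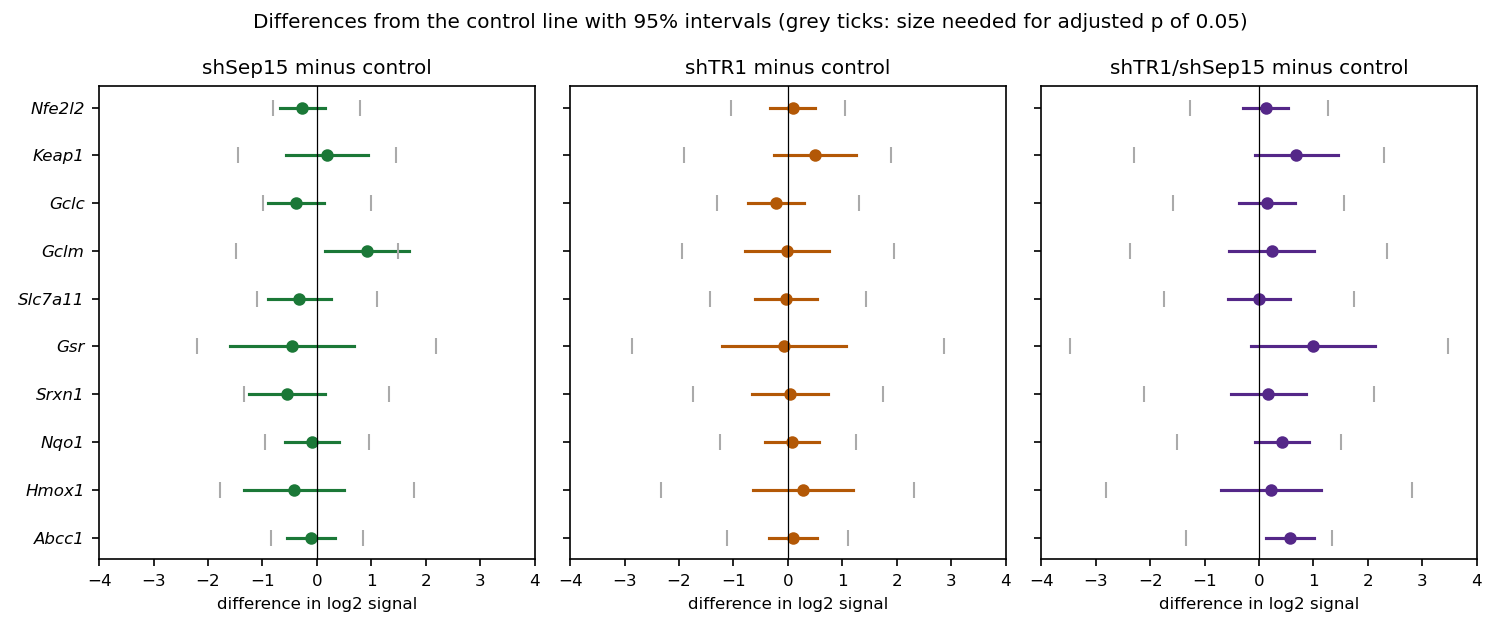
Difference in log2 signal of each gene's brightest probe set from the control line (x axis) in shSep15, shTR1 and shTR1/shSep15, with 95% intervals from limma; grey ticks mark the difference that would have had an adjusted p of 0.05. No point reaches its tick, and the intervals of Gclm in shSep15 and of Abcc1 in shTR1/shSep15 leave out 0.

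For the 20 probe sets the difference needed to pass ran from 0.46 to 2.19 in shSep15, from 0.60 to 2.87 in shTR1 and from 0.73 to 3.47 in shTR1/shSep15. A difference of 1 in Gsr, Keap1 or Hmox1 against control would thus not have passed on these arrays. By direction, 2 of the 10 genes had a higher mean than control in shSep15, 6 in shTR1 and 10 in shTR1/shSep15, where 46.3%, 45.8% and 52.9% of all genes did. Without control replicate 2 the counts were 3, 7 and 9. The 10 in shTR1/shSep15 include Slc7a11 at 0.0035. Of the 20 member probe sets 4, 8 and 16 were higher, where 44.2%, 43.1% and 47.9% of all probe sets were. These 3 comparisons share the control arrays, and none of the 10 genes of shTR1/shSep15 passed the test by itself.

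The lines that carry the Sep15 hairpin, alone or with the TR1 hairpin, can be compared without the control arrays. Keap1, Gsr and Abcc1 were lower in shSep15 than in shTR1/shSep15 without overlap, with differences of -0.73, -1.45 and -0.68 (1450747_at, 1421816_at and 1452233_at), and Gclm was higher by 0.69. In the fit on all 16 arrays none of the 20 member probe sets passed (2.66% of all probe sets did), and the lowest adjusted p was 0.107, for Abcc1 (limma). At an unadjusted p under 0.05 it gave 9 of 20, all lower in shSep15 (Keap1, Nqo1, Gclc and Abcc1, Gsr and Srxn1), against 13.3% of all probe sets in either direction. The arrays did not overlap for 7 of 20, 6 lower and 1 higher in shSep15, against 14.6% of all probe sets.

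The fit on all arrays gives one spread to all lines, and the control and shTR1 arrays spread more than those compared here. When limma was fitted to the 8 shSep15 and shTR1/shSep15 arrays alone, 6 of 20 member probe sets passed an adjusted p of 0.05, against 8.33% of all probe sets. Gsr was 2.72-fold lower in shSep15 (difference -1.45 ± 0.16, 95% interval -1.80 to -1.09, adjusted p = 0.000955) and its second probe set 1.84-fold lower (-0.88 ± 0.10, adjusted p = 0.00139). Abcc1 was 1.61-fold lower (-0.68 ± 0.10, adjusted p = 0.00356) and 1.54-fold lower with its second probe set (adjusted p = 0.0177), and Keap1 was 1.65-fold lower with 1450747_at (-0.73 ± 0.14, adjusted p = 0.012, limma on 8 arrays). The brighter probe set of Keap1 (1450746_at) did not pass on these arrays (-0.50 ± 0.20, adjusted p = 0.196, limma) or with array weights (adjusted p = 0.382, limma). Gclm was 1.61-fold higher in shSep15 (0.69 ± 0.17, adjusted p = 0.0341, limma on 8 arrays), while its dimmer probe set gave 0.22 ± 0.27. Gclc, Srxn1 and Nqo1 did not pass on these arrays, with Gclc at -0.53 ± 0.23 and Nqo1 at -0.52 ± 0.18.

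Keap1, Gsr and Abcc1 still held at least 1 passing probe set when any of the 8 arrays was left out, with 4 to 11 member probe sets passing and 5.18% to 9.22% of all probe sets. The highest count was without shSep15 replicate 2, where Gclc and Srxn1 passed too, and Gclm passed in 2 of the 8 such fits. After median centring or a further quantile normalization the same 8 arrays gave 6 member probe sets each, of Keap1, Gclm, Gsr and Abcc1. Over all probe sets 6.71% passed after median centring and 9.58% after the quantile normalization. With all 16 arrays weighted by their quality in limma, 10 of 20 passed, against 12.3% of all probe sets. Those 10 were all lower in shSep15 and belonged to Keap1, Gclc, Srxn1, Gsr and Abcc1, and Gclm did not pass (adjusted p = 0.0652). The call for Gsr, Abcc1 and the 1450747_at probe set of Keap1 thus turned on how the spread was estimated, and the differences of their passing probe sets lay between -0.62 and -1.49 in the fit on 8 arrays and the weighted fit.

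**Figure D3:**
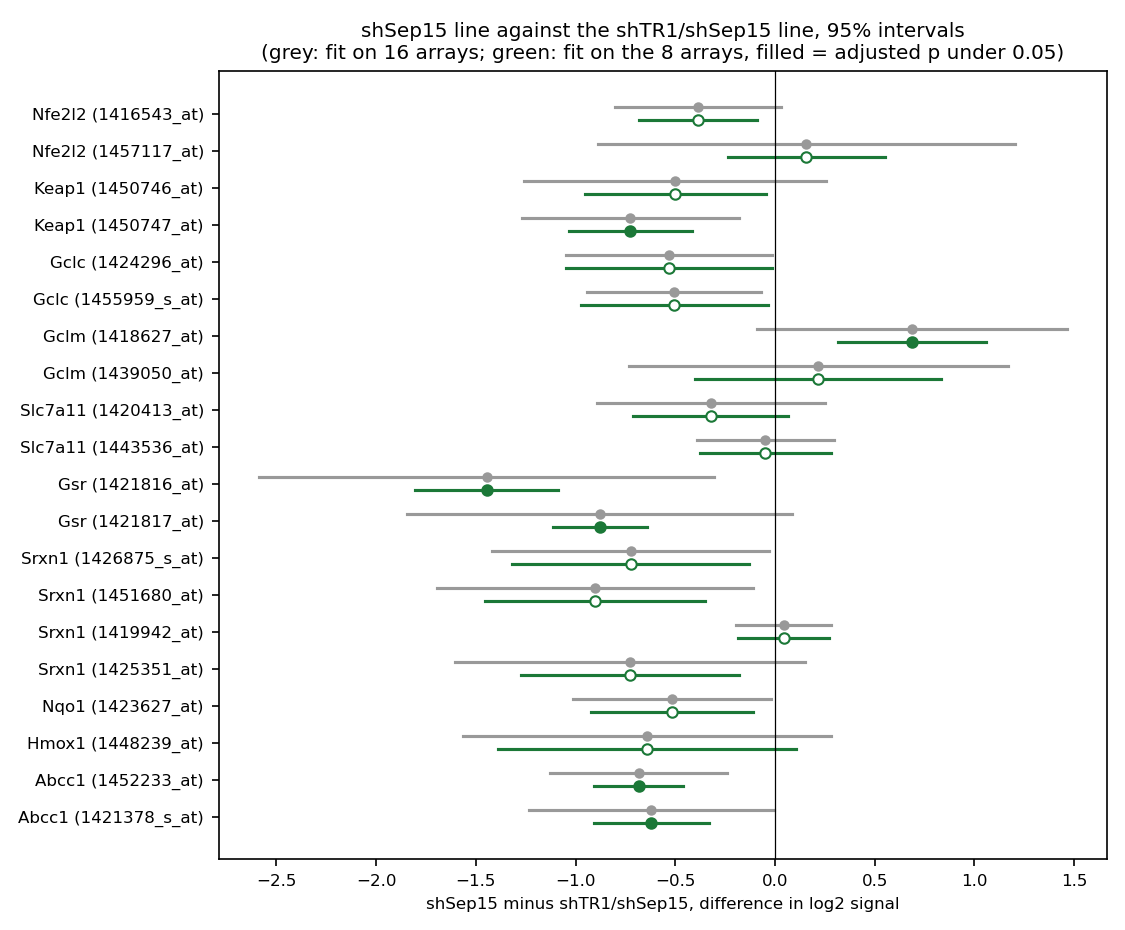
Difference in log2 signal between shSep15 and shTR1/shSep15 (x axis) for the 20 member probe sets, with 95% intervals from the fit on 16 arrays (grey) and on the 8 arrays compared (green, filled where the adjusted p was under 0.05). The filled points are Keap1 (1450747_at), Gclm (1418627_at) and both probe sets each of Gsr and Abcc1, and 16 of 20 points lie below 0.

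The shTR1 line lay below the shTR1/shSep15 line without overlap for Keap1 (-0.85, 1450747_at, adjusted p = 0.235, limma) and for Gsr (-1.06, adjusted p = 0.517, limma). None of the 20 passed, against 0.0733% of all probe sets. Unadjusted, 2 of 20 had a p under 0.05 (Keap1 and Abcc1) against 10.4%, and 2 of 20 did not overlap against 8.08%. Without shTR1 replicates 2 and 4 the difference moved from -0.34 to -0.65 for Nqo1 (adjusted p = 0.533, limma) and from -0.25 to -0.72 for Gclm (adjusted p = 0.883, limma). Between the single knockdown lines, Gclm alone did not overlap, with shSep15 above shTR1 by 0.93 ± 0.36 (adjusted p = 0.461, limma). There 0 of 20 passed against 0.648% of all probe sets, 1 of 20 had an unadjusted p under 0.05 against 7.87%, and 1 of 20 did not overlap against 5.69%. Without shTR1 replicates 2 and 4 and control replicate 2 the Gclm difference between these lines had an adjusted p of 0.0267 in limma.

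The last comparison was whether the effect of both hairpins equalled the sum of the single effects. The difference of differences was above 0 in 18 of 20 member probe sets, where 57.5% of all probe sets were above 0. It was 1.52 ± 0.76 for Gsr (adjusted p = 0.341, limma) and 0.85 ± 0.29 for Gclc (1455959_s_at, adjusted p = 0.146, limma). None of 20 passed, against 2.85% of all probe sets. Single arrays moved this count, and with array weights Gsr (1421816_at) and Gclc (1455959_s_at) passed as well (adjusted p = 0.0421 and 0.0163, limma). Gsr passed without control replicate 2 (2.13, adjusted p = 0.0392) and Gclc passed without shSep15 replicate 2 (1.08, adjusted p = 0.0161, limma).

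The spread among arrays of a line differed between lines for the same genes. The SD over the 4 arrays was smallest in shTR1/shSep15 for 15 of 20 member probe sets, with a median of 0.169 there, 0.288 in shSep15, 0.469 in shTR1 and 0.573 in the control line. Over all probe sets the medians were 0.167, 0.172, 0.200 and 0.251 in the same order, and over the probe sets above the median signal they were 0.205, 0.224, 0.293 and 0.386. The member genes lay a mean of 0.77 from their line mean on control replicate 2 and 0.13 to 0.25 on the shTR1/shSep15 arrays.

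**Figure D4:**
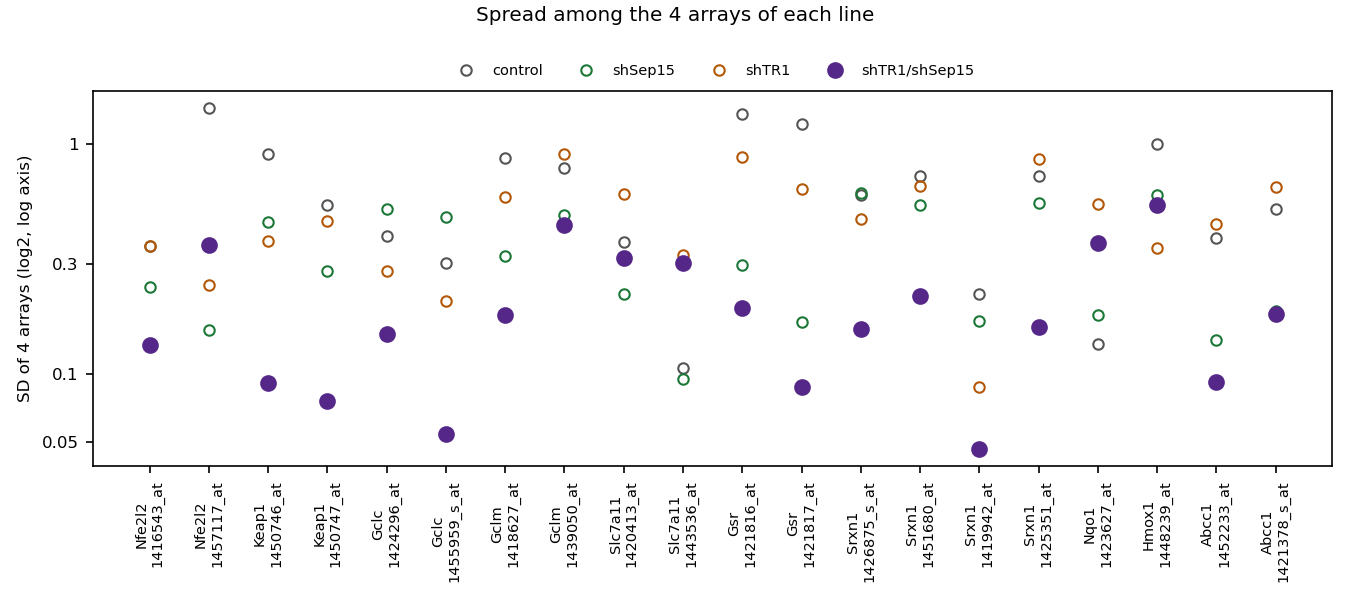
SD of the log2 signal over the 4 arrays of a line (y axis, log scale) for each of the 20 member probe sets (x axis), filled for shTR1/shSep15 and open for the other lines. The filled points are the lowest for 15 of 20 probe sets, and the exceptions are Nqo1, Hmox1, both probe sets of Slc7a11 and the dimmer one of Nfe2l2.

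Further genes of the pathway were read from a list of 63 in 7 roles, of which 53 were measured by a probe set with a single symbol. None passed an adjusted p of 0.05 in any line against control, where 2.72% of all genes passed in shSep15, 0.275% in shTR1 and 0.0385% in shTR1/shSep15. With no adjustment 5 were higher and 6 lower in shSep15, 3 and 5 in shTR1, and 5 and 5 in shTR1/shSep15, where an unadjusted p under 0.05 was found for 15.3%, 14.0% and 8.79% of all genes in either direction. The medians of their differences were -0.06, 0.08 and 0.06, beside -0.02, -0.03 and 0.01 for all genes.

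Among the regulators, Cul3, the scaffold of the ligase that Keap1 guides, was 0.62 ± 0.19 from control in shSep15 (all shSep15 arrays above all control arrays, adjusted p = 0.141, limma). Rbx1, its RING subunit, was -0.37 ± 0.13 in shTR1/shSep15 (all below, adjusted p = 0.468, limma). Of the thiol systems, Glrx, glutaredoxin, was 0.82 ± 0.19 in shTR1/shSep15 (all above, adjusted p = 0.249, limma). Txnrd1, itself a known Nrf2 target and here a hairpin target, was -2.36 ± 0.49 there (all below, adjusted p = 0.19, limma).

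The detoxification genes Mgst1 and Ptgr1 had the lowest unadjusted p of their role, both in shSep15. Mgst1, a membrane glutathione transferase, was 1.81 ± 0.59 from control (adjusted p = 0.164, limma) with an SD of 1.69 over the shSep15 arrays. Ptgr1, a reductase of prostaglandins and alkenals, was 1.04 ± 0.30 (all above, adjusted p = 0.105, limma). In shTR1 Ptgr1 was 0.51 ± 0.30, also with all arrays above control (adjusted p = 0.493, limma). The export pump Abcc3 was -0.40 ± 0.10 in shTR1 (all below, adjusted p = 0.145, limma) and Abcc4 was 1.07 ± 0.40 there (adjusted p = 0.32, limma) and 0.91 in shTR1/shSep15 (adjusted p = 0.587, limma), with a control SD of 1.10. Mgst1, Ptgr1 and Abcc3 were dim, with means over all arrays of 3.82, 3.65 and 3.47. The median over all probe sets was 4.52.

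By role, the shTR1/shSep15 mean was higher than control in 2 of 11 regulators, 4 of 7 genes of the glutathione and thioredoxin systems, 9 of 15 detoxification genes, 3 of 5 export pumps, 5 of 5 for NADPH supply, 5 of 5 for haem and iron and 2 of 5 remaining targets, where 52.9% of all genes were higher. Without control replicate 2 these counts were 4, 3, 9, 3, 4, 5 and 4. In the same order of roles the counts in shTR1 were 7, 4, 8, 3, 3, 4 and 2. Without that array they were 8, 2, 7, 3, 1, 1 and 1. In shSep15 they were 3, 5, 3, 1, 3, 2 and 1, and 5, 3, 4, 1, 1, 1 and 2 without that array. Of all genes 45.8% were higher in shTR1 and 46.3% in shSep15 with all arrays. Of the genes for NADPH supply, Me1, malic enzyme, was -0.45 ± 0.17 in shSep15 (adjusted p = 0.244, limma) and 0.29 in shTR1/shSep15 (all above, adjusted p = 0.709, limma). Pgd, an enzyme of the pentose phosphate pathway, was 0.71 ± 0.35 in shTR1/shSep15 (adjusted p = 0.642, limma). For haem and iron, Blvra, biliverdin reductase, was 0.49 ± 0.21 in shTR1 (adjusted p = 0.384, limma) and 0.38 in shTR1/shSep15 (adjusted p = 0.683, limma), with all arrays of both lines above control. Fth1, ferritin heavy chain, was 0.36 ± 0.17 in shTR1/shSep15 (all above, adjusted p = 0.607, limma). Of the remaining reported targets, Pir was 1.00 ± 0.38 in shTR1/shSep15 (all above, adjusted p = 0.525, limma), and Atf4, a stress factor that itself drives Slc7a11, was -0.52 ± 0.20 in shTR1 (adjusted p = 0.335, limma) and -0.47 in shTR1/shSep15 (adjusted p = 0.576, limma).

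**Figure D5:**
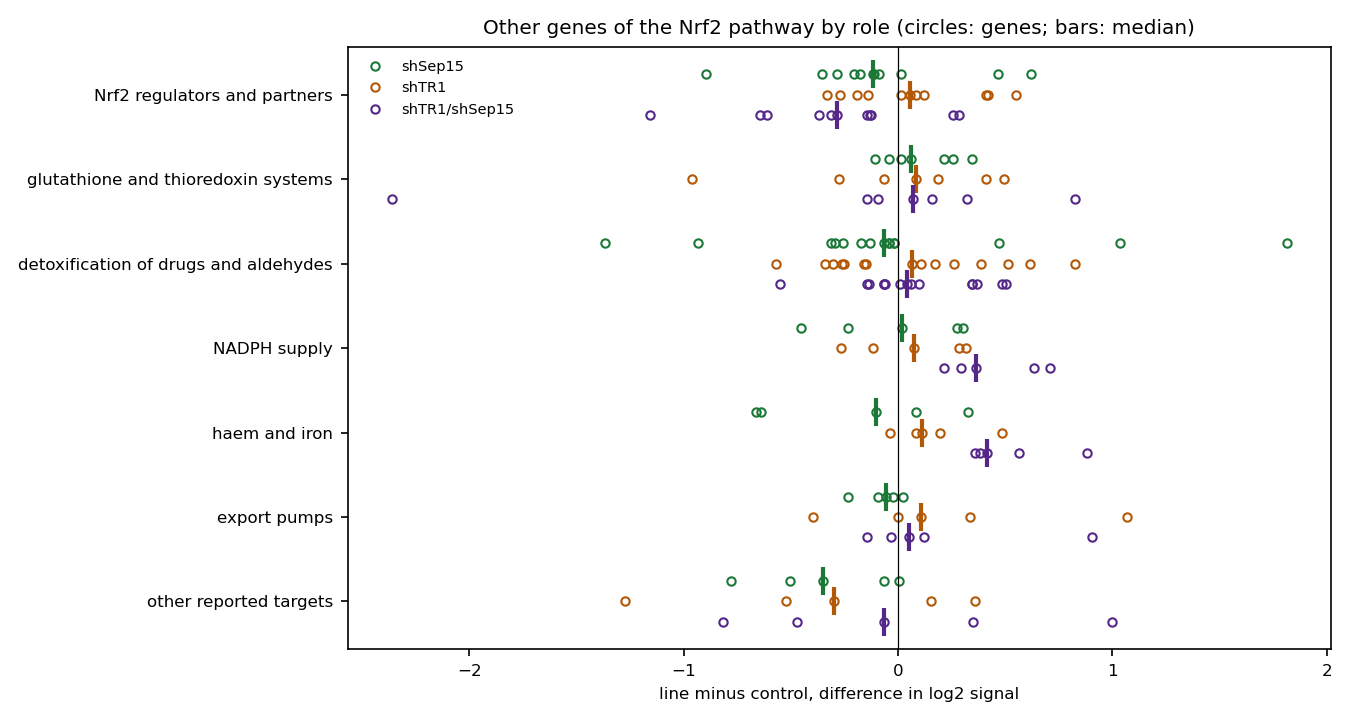
Difference in log2 signal from control (x axis) of the 53 measured genes of the wider list by role (y axis), with a circle for each gene, a bar for the median and a colour for each knockdown line. The shTR1/shSep15 medians run from -0.29 for the regulators to 0.42 for haem and iron, and the lowest circle is Txnrd1 in shTR1/shSep15.

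The genes most like each member over the 16 arrays, among 11539 genes above the median signal of all probe sets, give a picture of which patterns these arrays held. Gsr was followed most closely, by Pimreg (Pearson r = 0.962), Fkbp4 (0.951) and Sae1 (0.940). Keap1 was nearest to Cmtm7 (0.936), Ppm1m (0.936) and Cdk2ap1 (0.933), and Gclm to Ccdc50 (0.921), Cisd2 (0.879) and Adk (0.868). Abcc1 was nearest to Tbrg4 (0.898), Uck2 (0.883) and Hnrnpd (0.875), Slc7a11 to Aldh3a1 (0.894), Zfp532 (0.881) and Vegfa (0.855), and Nfe2l2 to Slc23a2 (0.892), Denn2b (0.851) and Irx2 (0.850). Gclc was nearest to Ccnyl1 (0.857), Tent2 (0.810) and Rnf149 (0.804), Nqo1 to Nemp2 (0.819), Tfap4 (0.815) and Fpgs (0.813), Hmox1 to Wdr73 (0.805), Slpi (0.801) and Cnbd2 (0.798), and Srxn1 to Tex30 (0.794), Rad18 (0.792) and Gas2l3 (0.782). No member was among the 3 nearest of another, but Nqo1 and Slc7a11 lay below the median signal and were not candidates. Aldh3a1, the nearest to Slc7a11, belongs to the wider list of pathway genes. Between members the closest pair was Gclc and Srxn1 (r = 0.728), and Gclm and Slc7a11 ran most against each other (r = -0.513). These arrays share lines and scaling, so the values describe the arrays and carry no test.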

How the data were processed

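Total RNA of 16 samples was hybridised to Affymetrix mouse expression arrays, one colour each, and the authors deposited log2 signals per probe set made with RMA, whose version is not given in the sources used here. RMA subtracts background, scales the arrays to one another and pools the probes of a set, so a shift shared by all transcripts cannot be read. The deposited arrays were not on one distribution. Their upper quartiles ran from 6.35 (shTR1/shSep15 replicate 2) to 6.76 (shTR1 replicate 2). Probe sets were named through the platform annotation and RefSeq (34945 with 1 symbol, 932 with several, 9160 with none), and 64 control probe sets were left out. Lines were compared with limma 3.58.1 (R 4.3.3) on all 16 arrays with one mean per line, with 12 residual degrees of freedom, empirical Bayes moderation and Benjamini-Hochberg adjustment over 45037 probe sets, and the script was tested on simulated data. Single values were compared by exact permutation over 4 and 4 arrays. The number of arrays limits the precision, and no low-signal filter or pseudocount was used. Named were all members, the 3 genes most correlated with each, and of the wider list those past the threshold or else the 2 per role with the lowest unadjusted p. Neighbours of Gclm were added after values were seen. Members and lists were chosen with earlier results of these data known. Alternatives were an intensity trend, other scalings, array weights, other probe sets per gene, the compared lines alone, an analysis of variance and left-out arrays. Figures used matplotlib.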

Additional observations from a re-analysis of the deposited data

Results flagged for a closer look

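In 80 sets of 4 arrays (20 member probe sets in 4 lines), the highest or lowest array was tested for its gap to the nearest other array, and 4 were flagged, the number that chance gives at 1 in 20. Keap1 (1450747_at) gave 6.72 on shSep15 replicate 4, above 6.15 to 6.19 on the other shSep15 arrays. Srxn1 (1451680_at) gave 7.38 on shSep15 replicate 2, above 6.23 to 6.43. Nqo1 gave 3.41 on control replicate 2, below 3.67 to 3.696 on the other control arrays. Abcc1 (1452233_at) gave 9.25 on shTR1/shSep15 replicate 2, below 9.426 to 9.434 on the others. The Srxn1 value belongs to the array on which Gclc also lay far above the other shSep15 arrays, and the Nqo1 value to the control array that correlated least with the rest.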

How the results depend on the processing

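No member passed against control in shTR1 under any alternative. Under an unadjusted analysis of variance 3 of 20 member probe sets passed in shSep15 and 2 in shTR1/shSep15 against control, 5 between shSep15 and shTR1/shSep15, and 1 each between shTR1 and shTR1/shSep15, between shSep15 and shTR1 and for non-additivity. Of all 45037 probe sets, 5483, 3368, 5665, 4335, 3424 and 6923 passed in these comparisons, in the same order. Array weights gave 1 in shSep15 against control (Gclc), 10 between shSep15 and shTR1/shSep15 and 2 for non-additivity (Gclc and Gsr), and the compared arrays alone gave 6 between shSep15 and shTR1/shSep15. Between shSep15 and shTR1/shSep15, 12.3% of all probe sets passed with array weights and 8.33% with the compared arrays alone. The remaining counts over all probe sets with array weights lay within the ranges given below. Those ranges span all fits, so they give no share to set beside the other member counts with array weights. Without shTR1 replicates 2 and 4 and control replicate 2, chosen after seeing the data, 2 passed between shSep15 and shTR1/shSep15 and 1 between shSep15 and shTR1. The counts over all probe sets in that fit also lay within the ranges given below, which again give no share for that fit alone. Leaving out 1 array gave 0 to 1 in shSep15 against control (1 without shSep15 replicate 2), and 0 to 1 both between shSep15 and shTR1/shSep15 and for non-additivity (1 without control replicate 2 and 1 without shSep15 replicate 2). Over all probe sets the same fits gave 437 to 1176, 613 to 2239 and 656 to 2340 in these comparisons. The fits on 8 arrays with an array left out or another scaling were also chosen after seeing the data.

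Over all probe sets replicate numbers did not pair the samples, since same-numbered arrays deviated together by more than 0.1 in 8 of 24 pairs (r from -0.53 to 0.47). With the replicate block 0 of 20 passed in each comparison, and the share of all probe sets in that fit is not given here. Hmox1, highest on replicate 2 in each line, moved with the block. Its unadjusted p in limma went from 0.128 to 0.0152 between shSep15 and shTR1. Between shSep15 and shTR1/shSep15 it went from 0.159 to 0.0232 (adjusted p = 0.42 and 0.273 with the block, limma). Over all probe sets the counts ranged from 345 to 5483 around 885 (shSep15 against control), 4 to 5037 around 81 (shTR1), 8 to 3368 around 11 (shTR1/shSep15), 613 to 5665 around 1196 (shSep15 against shTR1/shSep15), 5 to 4335 around 33 (shTR1 against shTR1/shSep15), 129 to 3424 around 292 (shSep15 against shTR1) and 519 to 6923 around 1282 (non-additivity), each high end from the unadjusted analysis of variance.

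Differences from control near 0 changed sign, none of them past the threshold. In shTR1, median centring gave 0.0405 for Gclm and 0.0152 for Slc7a11, further quantile normalization -0.0928 for Srxn1 and 0.0254 for Slc7a11, and array weights 0.0063 for Gclc. Taking the probe set with the largest SD gave -0.28 for Nfe2l2, 0.67 for Gclm, -0.32 for Srxn1 and -0.0872 for Abcc1 in shTR1 and -0.57 for Nfe2l2 in shTR1/shSep15. The mean of a gene's probe sets gave -0.10 for Nfe2l2, 0.33 for Gclm, -0.16 for Srxn1 and 0.083 for Gsr in shTR1, and -0.22 for Nfe2l2 and -0.0316 for Slc7a11 in shTR1/shSep15. Without shTR1 replicates 2 and 4 the shTR1 values were -0.0015 for Nfe2l2 and -0.22 for Nqo1. Without control replicate 2 as well, they were -0.29 for Nqo1 and 0.0662 for Slc7a11, those of shSep15 were -0.24 for Keap1, 0.0713 for Hmox1 and 0.0191 for Abcc1, and that of Gclm in shTR1/shSep15 was -0.16. The cause of these moves was not tested.

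Leaving out 1 array turned the sign of 14 differences. In shSep15 they ranged from -0.29 to 0.0191 for Abcc1, -0.71 to 0.0713 for Hmox1 and -0.24 to 0.42 for Keap1. In shTR1 they ranged from -0.0802 to 0.30 for Abcc1, -0.41 to 0.23 for Gclm, -0.68 to 0.35 for Gsr, -0.0797 to 0.26 for Nfe2l2, -0.19 to 0.22 for Nqo1, -0.24 to 0.15 for Slc7a11 and -0.24 to 0.24 for Srxn1. In shTR1/shSep15 they ranged from -0.16 to 0.48 for Gclm, -0.0207 to 0.71 for Hmox1, -0.16 to 0.10 for Slc7a11 and -0.11 to 0.36 for Srxn1. A fit on bright probe sets alone gave no value for Nqo1 and Slc7a11, and the compared lines alone gave none for non-additivity.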
